A study of Mus musculus with 12 samples.

Results

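The nuclear genes for respiratory complexes II to V were followed here across 12 mouse RNA sequencing libraries. Members were taken by symbol among protein-coding genes: Sdha to Sdhd for complex II, symbols starting with Uqcr together with Cyc1 for complex III, Cycs for cytochrome c, symbols starting with Cox4 to Cox8 for complex IV, and symbols starting with Atp5 for complex V. The rule found 50 of the 55900 gene identifiers of the series. These were 4 for complex II, 9 for complex III, 1 for cytochrome c, 18 for complex IV and 18 for complex V. Of these, 48 had a count in any library, 47 passed the filter on low counts in the forelimb and 45 passed it in the cultures. Cox7b2 and a second identifier named Atp5o held no count anywhere, Cox8c held almost none, and Cox4i2 and Cox8b passed the filter only in the forelimb. Atp5s fits the rule by symbol but encodes a protein that is not counted among the standard subunits.

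The study deleted Impdh2, which encodes an enzyme of guanine nucleotide synthesis, in limb mesenchyme or in myeloid cells. Forelimbs were taken at stage E12.5 from embryos labelled Wt (here WT) or Impdh2 Prx-cKO, in which limb mesenchymal progenitors carry the deletion. Cultures labelled osteoclast came from bone marrow of WT mice or of Impdh2 LysM-cKO mice, in which the myeloid lineage carries it, and are titled R40D3 or R0D3. Each of the 6 groups held 2 libraries, and the labels do not say whether these came from separate animals, so the p-values measure only the spread between these libraries. Marrow cells had been grown for 3 days with conditioned medium containing M-CSF equivalent to 20 ng/ml, and the stated protocol then used 40 ng/ml of RANKL, the cytokine that drives osteoclast formation. All 8 culture samples carry that same treatment label, and the labels do not spell out R40 and R0, which serve here as names.

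Complex II (succinate dehydrogenase) passes electrons from succinate to ubiquinone, complex III (cytochrome bc1) passes them to cytochrome c, and complex IV (cytochrome c oxidase) passes them to oxygen. Complexes III and IV pump protons across the inner mitochondrial membrane, and complex V (ATP synthase) uses the gradient to make ATP. Complex II is encoded by nuclear genes alone, whereas complexes III, IV and V each hold subunits encoded by the mitochondrial genome. Osteoclasts are rich in mitochondria, and transcriptional coactivators of the PGC-1 family and the receptor ERRα are known to raise the nuclear genes of these complexes.

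Forelimb libraries held 28892215 to 69466572 counts, and culture libraries held 16009146 to 19221865. Levels are given in CPM, the count scaled to the TMM-adjusted library total. Impdh2 was at 260 and 272 CPM in WT forelimbs against 170 and 199 CPM in Prx-cKO forelimbs (log2 fold change −0.53, SE 0.16, adjusted p 0.443 by the edgeR quasi-likelihood test with Benjamini-Hochberg adjustment), which did not pass the threshold of 0.05. It stood at 25.7 and 27.7 CPM in R40D3 WT against 7.72 and 8.38 CPM in R40D3 LysM-cKO (log2 fold change −1.73, SE 0.15, edgeR adjusted p 0.0386). In R0D3 it was at 22.3 and 28.2 CPM in WT against 7.36 and 7.03 CPM in LysM-cKO (log2 fold change −1.81, SE 0.16, edgeR adjusted p 0.0323). The 11 osteoclast markers summed to 13272 to 38999 CPM in the R40D3 libraries and to 325 to 471 CPM in the R0D3 libraries, where the calcitonin receptor gene Calcr was at 0 in all 4. The R0D3 libraries labelled osteoclast thus held few transcripts of that list, while the 8 macrophage markers summed to 8059 to 10120 CPM over all 8 cultures.

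In WT cultures the respiratory genes were higher in R40D3 than in R0D3. All 45 members tested had a positive log2 fold change, as did 51.2% of all genes, with a median of 1.06 (2.09-fold), against 0.01 over all 14030 genes tested. The edgeR test called 36 of 45 members, all higher, where 11.4% of all genes were called higher and 16.9% were called in either direction. Both R40D3 WT libraries lay above both R0D3 WT libraries for 43 members, against 32.9% of all genes. In these bulk samples, more cells of a type and more RNA per cell cannot be told apart. The osteoclast markers moved with this comparison, since all 11 of 11 were called higher, and their part in the result was not tested.

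The count of calls moved with single libraries. It was 9 without R0D3 WT replicate 1 (5.46% of all genes called in that fit), 18 without R0D3 WT replicate 2 (5.47%), 10 without R40D3 WT replicate 2 (4.71%) and 31 without R40D3 WT replicate 1 (11.6%). The median log2 fold change moved less, from 0.85 to 1.25 over these fits. The 9 members called in all 4 of these fits were Sdha and Sdhd of complex II, Cyc1, Uqcrc1, Uqcrc2 and Uqcrfs1 of complex III, Cox5a of complex IV, and Atp5b and Atp5j of complex V.

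Complex III held the member with the largest rise. Cyc1 (ENSMUSG00000022551, GRCm38 chromosome 15, 76343523 to 76346260, plus strand, 6 exons in the merged annotation) encodes cytochrome c1, the haem subunit that hands electrons to cytochrome c. It stood at 41.2 and 44.6 CPM in R0D3 WT against 184 and 228 CPM in R40D3 WT. The R40D3 libraries lay far above the R0D3 libraries, with a log2 difference of 2.26 (SE 0.19, edgeR adjusted p 0.00067). All 9 complex III genes were called higher, with a median of 1.47. Uqcrc2, a core subunit, rose from 84.4 and 91.5 to 238 and 292 CPM (1.59, SE 0.19). Uqcrfs1, the Rieske iron-sulfur protein, rose from 81.1 and 87.7 to 215 and 268 CPM (1.52, SE 0.19). Uqcrh, the hinge protein that helps cytochrome c dock, had the smallest rise of the complex at 0.76 (SE 0.14) and remained called only without R40D3 WT replicate 1 among these fits.

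The 4 complex II genes were all called higher, with a median of 1.22. Sdha, the flavoprotein that oxidises succinate, was at 261 and 278 CPM in R0D3 WT against 626 and 785 CPM in R40D3 WT (log2 fold change 1.39, SE 0.19, edgeR adjusted p 0.0037). Sdhb, the iron-sulfur subunit, was at 81.1 and 101 CPM and then at 200 and 245 CPM (1.28, SE 0.22). For both genes the groups were well apart. The membrane anchors were close behind: Sdhc was at 111 and 129 CPM and then at 214 and 270 CPM (1.01, SE 0.21), and Sdhd was at 99.2 and 110 CPM and then at 207 and 261 CPM (1.16, SE 0.16). Sdhb was no longer called without R0D3 WT replicate 1 or without R40D3 WT replicate 2, and Sdhc only remained called without R40D3 WT replicate 1.

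Cycs, the soluble electron carrier cytochrome c, was at 3.38 and 5.97 CPM in R0D3 WT against 16.7 and 22.05 CPM in R40D3 WT. The groups did not overlap, and the log2 fold change was 2.05 (SE 0.33, edgeR adjusted p 0.0065). The call was lost without R0D3 WT replicate 1 or without R40D3 WT replicate 2, with adjusted p of up to 0.058 over the alternatives run. Its level in the cultures is uncertain because its whole coding sequence is shared with other genes, as described with the near-identical copies.

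Complex IV, like complex V, held a smaller share of calls than complexes II and III. Of the 14 complex IV members tested, 10 were called, all higher, with a median of 0.89. Cox5a, a subunit next to the catalytic core, was at 62.5 and 71.2 CPM in R0D3 WT against 138 and 177 CPM in R40D3 WT (1.23, SE 0.18, edgeR adjusted p 0.0043). Cox4i1, the common isoform of subunit 4, rose by less, from 300 and 356 to 486 and 624 CPM (0.76, SE 0.20, edgeR adjusted p 0.0415), and was called in none of the 4 fits without 1 library. Cox6a1 rose from 116 and 139 to 243 and 311 CPM (1.125, SE 0.21), and Cox7b from 52.3 and 62.4 to 115 and 142 CPM (1.16, SE 0.23). Cox6b1 rose from 107 and 118 to 182 and 215 CPM (0.82, SE 0.19), and Cox8a from 107 and 132 to 186 and 232 CPM (0.81, SE 0.18). Cox7a2 had a value of 0.90 (SE 0.19). Of these common isoforms, Cox6a1, Cox7a2, Cox7b and Cox8a kept their call only without R40D3 WT replicate 1, and Cox6b1 kept it in none of the 4 fits. The 4 members not called were Cox6a2, Cox6b2, Cox7a1 and Cox7a2l. The first 3 were under 5 CPM in every culture library. Cox7a2l, which links complexes III and IV in the supercomplex, was at 177 and 195 CPM and then at 215 and 257 CPM, a log2 difference of 0.34 (SE 0.18, edgeR adjusted p 0.247).

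In complex V, 12 of 17 members tested were called, all higher, with a median of 0.92. Atp5b, the catalytic β subunit, was at 489 and 528 CPM in R0D3 WT against 1327 and 1595 CPM in R40D3 WT (1.52, SE 0.20, edgeR adjusted p 0.0033). Atp5a1, the α subunit of the same catalytic head, was at 512 and 570 CPM and then at 1168 and 1390 CPM (1.24, SE 0.19). Both genes were clear of overlap, and Atp5a1 lost its call without R0D3 WT replicate 1 or without R40D3 WT replicate 2. Atp5g3, 1 of the 3 genes for the proton-carrying c subunit, had the largest rise of the complex, from 107 and 118 to 335 and 465 CPM (1.83, SE 0.27, edgeR adjusted p 0.0045). Atp5g1 rose from 8.27 and 11.6 to 24.7 and 35.2 CPM (1.59, SE 0.26; lost without R0D3 WT replicate 1 or R40D3 WT replicate 2), while Atp5g2 was at 2.45 and 1.68 CPM and then at 3.77 and 2.81 CPM (0.67, SE 0.32), which did not pass. Atp5g3 was not called without R0D3 WT replicate 1 (adjusted p up to 0.051 over the alternatives). Atp5j, coupling factor 6 of the stalk, had a smaller rise with a small error, from 73.8 and 77.1 to 122 and 117 CPM (0.66, SE 0.09). The 5 members not called were Atp5e, Atp5g2, Atp5l, Atp5mpl and Atp5s, with log2 fold changes from 0.20 to 0.75. Atp5s was at 4.95 and 5.84 CPM in R0D3 WT against 6.07 and 6.35 CPM in R40D3 WT, a rise of 0.20 (SE 0.20) that was within its error.

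**Figure D1:**
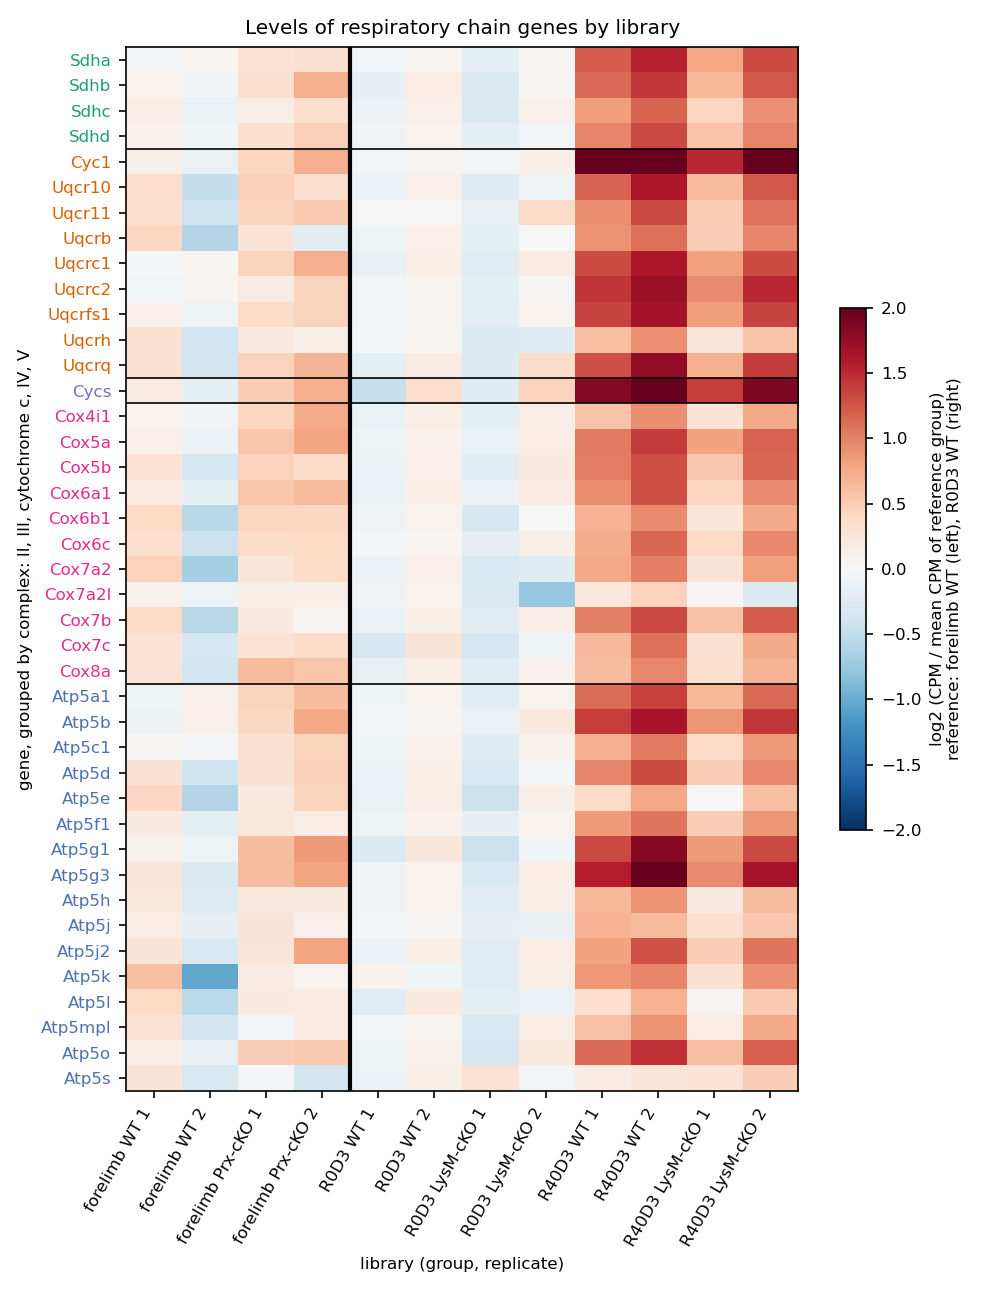
Heat map of the members that averaged 5 CPM or more in both tissues, grouped by complex, in each of the 12 libraries. Colour gives log2 of CPM over the mean CPM of WT forelimb (left of the line) or of R0D3 WT (right of it). The R40D3 columns are red in nearly all genes, deepest in Cyc1, Cycs and Atp5g3 (the colour ends at 2), while Cox7a2l and Atp5s are pale.

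The promoters of the members were searched for the letters of known binding motifs of respiratory gene regulators, as a description only. Whether these motifs have a part in the rise of the members was not tested. RefSeq windows (GRCm38.p6, from 250 bases before to 50 after a start) were found for 36 of 49 member symbols, in 39 windows. The NRF1 motif (GCGCA, any base, then GCGC) stood on either strand in 10 of the 39 windows (25.6%), against 4.60% of all 32851 windows. The ETS motif CCGGAAG, the kind that GABP binds, stood in 12 (30.8% against 8.86%), the YY1 motif AAGATGGCG in 2 (5.13% against 1.40%) and the ERR motif TCAAGGTCA in 2 (5.13% against 0.423%). Any of these stood in 19 windows (48.7% against 13.9%). The median GC content was 56.3% in member windows and 52.7% in all windows. No matches of 2 motifs overlapped in a member window. The windows shown are those of Sdha for its 3 NRF1 matches, Sdhd and Atp5g3 as the members with both an NRF1 and an ERR match, and Cox6b2, the member with the largest forelimb difference, which has none of the motifs. Each is written 5′ to 3′ on the gene's strand, up to 30 bases after the start, and capitals mark the matches. They were chosen after the matches were seen, and a match is a description of letters, not a site.
Sdha, chr13:74350211-74350490, minus strand: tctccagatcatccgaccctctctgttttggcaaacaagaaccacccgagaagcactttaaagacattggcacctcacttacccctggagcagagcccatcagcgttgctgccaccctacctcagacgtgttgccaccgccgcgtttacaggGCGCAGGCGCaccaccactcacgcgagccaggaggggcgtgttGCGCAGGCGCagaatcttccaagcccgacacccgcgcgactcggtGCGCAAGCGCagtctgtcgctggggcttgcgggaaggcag
Sdhd, chr9:50603820-50604099, minus strand: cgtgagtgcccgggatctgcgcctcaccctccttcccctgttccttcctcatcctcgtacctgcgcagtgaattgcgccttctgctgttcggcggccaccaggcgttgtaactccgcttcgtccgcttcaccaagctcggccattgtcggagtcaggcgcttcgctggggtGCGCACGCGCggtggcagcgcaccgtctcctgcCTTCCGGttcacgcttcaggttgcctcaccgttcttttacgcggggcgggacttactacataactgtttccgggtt
Atp5g3, chr2:73911297-73911576, minus strand: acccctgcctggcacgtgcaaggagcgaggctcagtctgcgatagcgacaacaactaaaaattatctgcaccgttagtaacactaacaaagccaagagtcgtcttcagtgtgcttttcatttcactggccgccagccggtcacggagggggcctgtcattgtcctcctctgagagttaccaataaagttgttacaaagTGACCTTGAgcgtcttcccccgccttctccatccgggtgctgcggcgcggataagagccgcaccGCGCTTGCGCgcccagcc
Cox6b2, chr7:4753065-4753344, minus strand: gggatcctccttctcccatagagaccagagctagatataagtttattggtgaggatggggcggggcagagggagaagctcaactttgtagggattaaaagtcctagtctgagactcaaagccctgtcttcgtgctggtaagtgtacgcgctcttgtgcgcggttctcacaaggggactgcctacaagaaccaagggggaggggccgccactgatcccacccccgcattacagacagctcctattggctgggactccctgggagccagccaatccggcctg

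In Sdha the capitals are all NRF1 matches. In Sdhd they are the NRF1 and then the ETS match, while its ERR match lies past the printed end, and in Atp5g3 the ERR and then the NRF1 match. Of the members tested in the cultures, 16 of 19 with a match and 12 of 15 with a window but no match were called higher in R40D3 WT.

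In LysM-cKO cultures the same comparison also gave higher levels in R40D3. Of 45 members, 44 had a positive log2 fold change (51.2% of all genes), with a median of 0.83, and 23 were called, all higher, where 6.99% of all genes were called higher and 10.1% in either direction. All 23 were also called in WT. Both R40D3 libraries lay above both R0D3 libraries for 41 members, against 27.3% of all genes. By complex, 3 of 4 were called in complex II (median 1.01), 7 of 9 in complex III (1.10), Cycs (1.49), 4 of 14 in complex IV (0.71) and 8 of 17 in complex V (0.71). With the replicate number as a block, 40 members were called, as were 21.3% of all genes.

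Cyc1 again had the largest rise. It stood at 41.3 and 46.4 CPM in R0D3 LysM-cKO against 122 and 176 CPM in R40D3 LysM-cKO, a log2 difference of 1.76 (SE 0.19, edgeR adjusted p 0.0023). Sdha was at 237 and 277 CPM and then at 461 and 663 CPM (1.13, SE 0.19, edgeR adjusted p 0.0124). Atp5g3 was at 91.7 and 125 CPM and then at 218 and 353 CPM (1.39, SE 0.26, edgeR adjusted p 0.0186). Atp5j was at 67.4 and 67.9 CPM and then at 94.5 and 110 CPM (0.59, SE 0.09, edgeR adjusted p 0.00995). In all 4 genes R40D3 replicate 1 was the lower R40D3 library, and Sdha, Atp5g3 and Atp5j kept their call only without that library, as did Cox5a, Cycs, Sdhb and Sdhd. Cyc1 and Uqcrc2 (1.34, SE 0.19) were called in every fit that left out 1 library. Cox5a was at 60.8 and 74.2 CPM and then at 116 and 151 CPM (0.99, SE 0.18), and Cycs at 3.97 and 6.43 CPM and then at 12.2 and 17.1 CPM (1.49, SE 0.33). The other complex II values were 1.10 (SE 0.22) for Sdhb, 0.91 (SE 0.16) for Sdhd and 0.77 (SE 0.21) for Sdhc, of which Sdhc did not pass (edgeR adjusted p 0.0584). Atp5s had a value of 0.25 (SE 0.20). The number of members called was 2 without R0D3 LysM-cKO replicate 1, a share near the 5.16% of all genes called in that fit. It was 3 without R0D3 LysM-cKO replicate 2 (2.72% of all genes), 3 without R40D3 LysM-cKO replicate 2 (3.25%) and 33 without R40D3 LysM-cKO replicate 1 (9.08%). The median fell to 0.50 without R40D3 LysM-cKO replicate 2. With only the 4 compared libraries in the fit, 6 members and 3.92% of all genes were called.

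**Figure D2:**
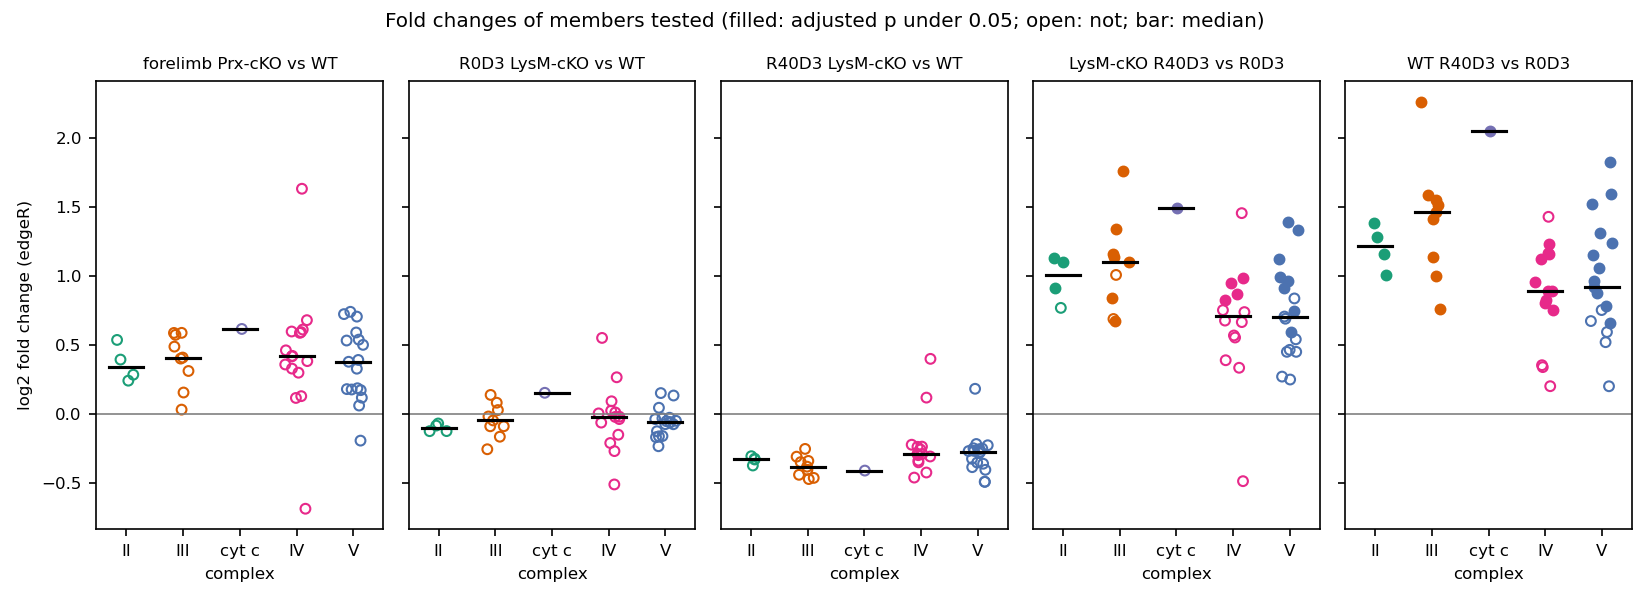
Log2 fold changes (edgeR) of the members tested in 5 comparisons, each point 1 gene, placed by complex, with a bar at the median of each complex. Filled points passed the adjusted threshold. In WT R40D3 against R0D3 the bars run from 0.89 for complex IV to 1.47 for complex III, with the single gene Cycs at 2.05, each is lower in LysM-cKO, and no point is filled in the 3 knockout comparisons.

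At R40D3 most members were lower in LysM-cKO than in WT, but none was called (0 of 45), where 0.0143% of all genes were. Of 45 members, 42 had a negative log2 fold change, against 51.4% of all genes, and the median was −0.31 (all genes −0.01). The smallest adjusted p of a member was 0.648 (edgeR), and 4 members (Cyc1, Uqcrh, Cox7a2l and Atp5j) had an unadjusted p under 0.05, which 7.47% of all genes had. With the replicate number as a block 38 members had an unadjusted p under 0.05, against 18.5% of all genes, and 0 were called. DESeq2 gave 8, against 4.87% of all genes, and called 0. Both LysM-cKO libraries lay below both WT libraries for 8 members, against 18.9% of all genes, both lay above for 2 (Cox6b2 and Atp5s), against 19.7%, and the groups overlapped for 35. The medians were −0.32 in complex II, −0.38 in complex III, −0.29 in complex IV and −0.27 in complex V.

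The libraries of each genotype also stood apart from each other. LysM-cKO replicate 1 was below WT replicate 1 for 43 of 45 members (median log2 ratio −0.44), and LysM-cKO replicate 2 was below WT replicate 2 for 41 (−0.23). LysM-cKO replicate 2 was above WT replicate 1 for 36 (0.07). Replicate 2 exceeded replicate 1 for 43 members in both genotypes. The median of −0.31 moved to −0.07 when LysM-cKO replicate 1 was left out and to −0.61 when LysM-cKO replicate 2 was. Leaving out WT replicate 1 gave −0.47, and leaving out WT replicate 2 gave −0.16. These fits had no term for the replicate number, so the difference between replicates 1 and 2 enters these medians.

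Cyc1 was at 184 and 228 CPM in R40D3 WT against 122 and 176 CPM in R40D3 LysM-cKO. Both LysM-cKO libraries were lower, by −0.47 on the log2 scale (SE 0.18, edgeR adjusted p 0.648), which did not pass. Sdhd was at 207 and 261 CPM and then at 156 and 206 CPM (−0.37, SE 0.16), also without overlap but with the second LysM-cKO library almost at the first WT library. Atp5g3, at 335 and 465 CPM in WT and 218 and 353 CPM in LysM-cKO, had, with Atp5g1 (−0.49, SE 0.25), the largest negative value of complex V (−0.49, SE 0.26), and its groups overlapped. Atp5j was at 122 and 117 CPM in WT and 94.5 and 110 CPM in LysM-cKO (−0.22, SE 0.09), without overlap. Cycs was at 16.7 and 22.05 CPM and then at 12.2 and 17.1 CPM (−0.41, SE 0.29), with overlap. Atp5s went the other way, at 6.07 and 6.35 CPM in WT and 6.56 and 7.58 CPM in LysM-cKO (0.18, SE 0.19). The summed osteoclast markers were likewise higher in replicate 2 of each genotype, at 26473 and 38999 CPM in WT and 13272 and 24987 CPM in LysM-cKO. All 11 had a negative log2 fold change there, and their part in the lower respiratory genes was not tested. The 6 cell cycle genes summed to 168 and 326 CPM in LysM-cKO and to 130 and 120 CPM in WT, and the 6 stromal fibroblast genes to 1393 and 407 CPM in LysM-cKO and 1543 and 1463 CPM in WT. These parts were not tested either.

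In the R0D3 cultures the members differed little between genotypes. None was called (0 of 45, edgeR; 0.0143% of all genes), 32 had a negative (48.1% of all genes) and 13 a positive log2 fold change (51.7%), and the median was −0.05. With offsets for trends in length and GC content, 23 were negative and 22 positive. Leaving out 1 library gave medians of −0.23 (LysM-cKO replicate 2 left out), −0.14 (WT replicate 1), 0.03 (WT replicate 2) and 0.08 (LysM-cKO replicate 1). One member, Cox7a2l, had an unadjusted p under 0.05, where 4.42% of all genes did, and DESeq2 also gave 1 (2.78% of all genes) and called 0. Both LysM-cKO libraries lay below both WT libraries for 4 members (Uqcrh, Cox7a2, Cox7a2l and Atp5j), against 14.8% of all genes, and above for 1 (Cox6a2), against 17.5%. Uqcrh was at 107 and 114 CPM in WT and 91.6 and 93.3 CPM in LysM-cKO, a log2 difference of −0.25 (SE 0.14, edgeR adjusted p 0.997). Atp5j was at 73.8 and 77.1 CPM in WT and 67.4 and 67.9 CPM in LysM-cKO (−0.16, SE 0.09), and Sdhd at 99.2 and 110 CPM and then at 91.6 and 101 CPM (−0.12, SE 0.16). Cycs had the largest positive value among members of 5 CPM or more, at 3.38 and 5.97 CPM in WT and 3.97 and 6.43 CPM in LysM-cKO (0.16, SE 0.38), well within its error.

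The difference between the R40D3 and R0D3 genotype effects was tested as an interaction. No member was called (0 of 45, 0.0% of all genes), 0 had an unadjusted p under 0.05 (1.77% of all genes), and DESeq2 also gave 0 (0.784% of all genes) and called 0. Negative values mean that LysM-cKO minus WT was lower at R40D3 than at R0D3. They were negative for 41 members (53.0% of all genes), with a median of −0.24 against −0.02 for all genes. With the replicate number as a block 13 had an unadjusted p under 0.05, against 5.99% of all genes, and 0 were called. The median was 0.02 without R40D3 LysM-cKO replicate 1, −0.04 without R40D3 WT replicate 2, −0.08 without R0D3 LysM-cKO replicate 2 and −0.50 without R40D3 LysM-cKO replicate 2. It was −0.38 without R40D3 WT replicate 1 and −0.35 without R0D3 LysM-cKO replicate 1. Cyc1 had an interaction of −0.50 (SE 0.26) and Atp5b of −0.40 (SE 0.28). Cox6a1 was at −0.45 (SE 0.29), Cycs at −0.56 (SE 0.48) and Sdhd at −0.25 (SE 0.23). The most positive value among members of 5 CPM or more was that of Cox7a2l at 0.05 (SE 0.25), and none of these passed.

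Cox7a2l gave a similar genotype value in both cultures. It (ENSMUSG00000024248, GRCm38 chromosome 17, 83501918 to 83517330, minus strand) was at 177 and 195 CPM in R0D3 WT against 152 and 110 CPM in R0D3 LysM-cKO (log2 fold change −0.51, SE 0.18, edgeR adjusted p 0.997). In R40D3 it was at 215 and 257 CPM in WT against 190 and 153 CPM in LysM-cKO (−0.46, SE 0.18, edgeR adjusted p 0.648). LysM-cKO was lower without overlap both times, but neither value passed. Its processed pseudogene Gm6969 (chromosome 12, 24638669 to 24639010) carries 43.0% of its coding 75-base words. Gm6969 was highest in the second LysM-cKO library of each culture, at 68.6 CPM in R0D3 and 98.8 CPM in R40D3, against 31.3 to 59.9 CPM in the other 6 culture libraries. The 2 genes together were at 211 and 233 CPM in R0D3 WT, 183 and 179 CPM in R0D3 LysM-cKO, 262 and 316 CPM in R40D3 WT and 230 and 252 CPM in R40D3 LysM-cKO. The summed groups did not overlap in either culture. Whether reads moved between the 2 genes was not tested.

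**Figure D3:**
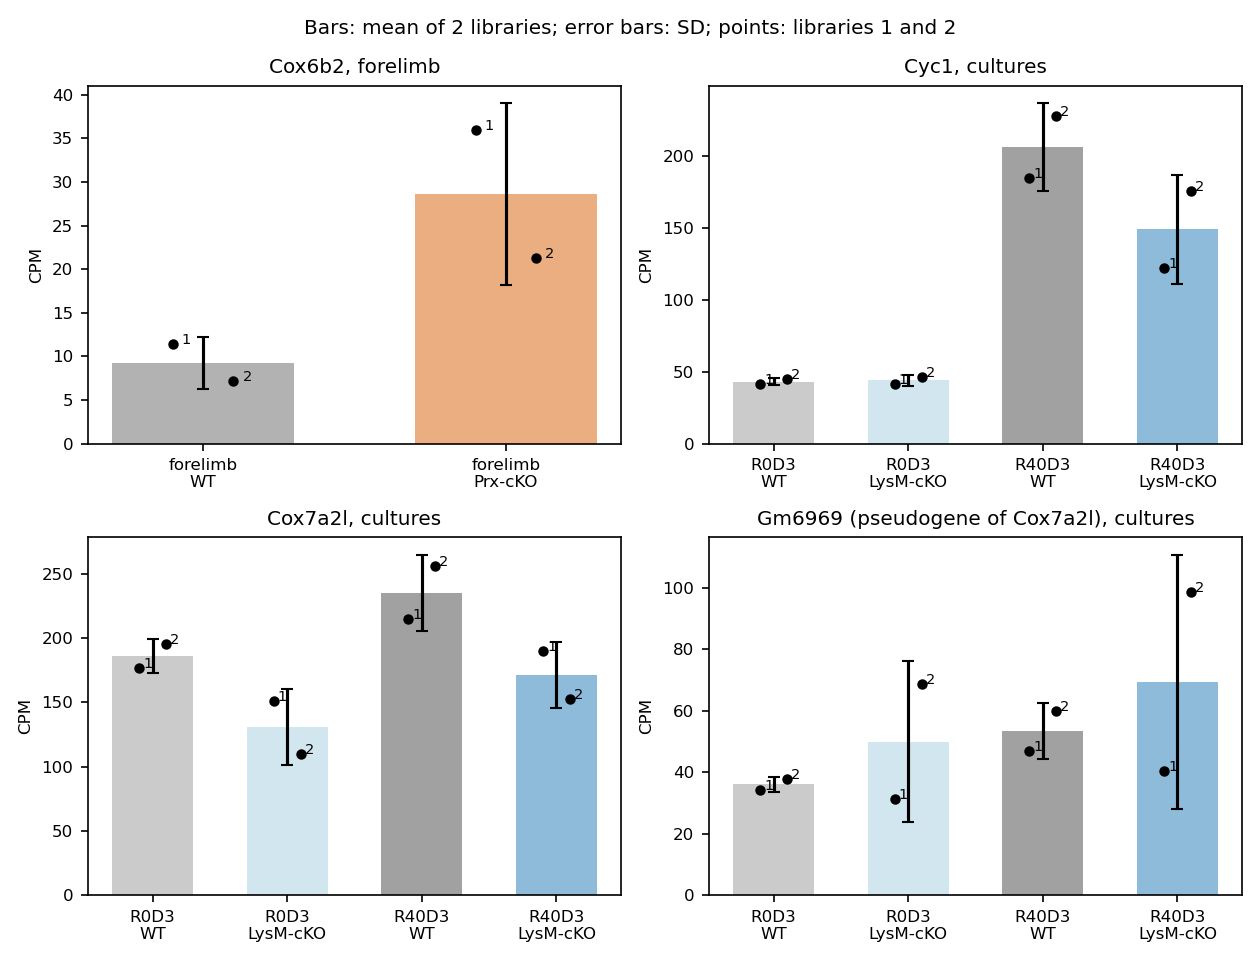
CPM of Cox6b2 in the forelimb, and of Cyc1, Cox7a2l and Gm6969 in the cultures; bars are means of 2 libraries, error bars are SD and points are libraries 1 and 2. Cyc1 is several times higher in R40D3, and Gm6969 is highest where Cox7a2l is lowest within each culture, in LysM-cKO library 2.

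In the forelimb, 45 of the 47 members tested had a positive log2 fold change in Prx-cKO against WT, against 47.2% of all genes, with a median log2 difference of 0.40 against −0.03 for all 19987 genes. None was called (0 of 47, edgeR; 0.0% of all genes), and 17 had an unadjusted p under 0.05, which 10.5% of all genes had. DESeq2 called 3 (Cox6b2, Atp5g1 and Atp5g2), and 1.95% of all genes. Both Prx-cKO libraries lay above both WT libraries for 30 members, against 22.2% of all genes, and below for 1 (Cox7a1), against 21.0%. The medians were 0.34 in complex II, 0.41 in complex III, 0.42 in complex IV and 0.38 in complex V, and Cycs was at 0.62. Prx-cKO replicates 1 and 2 against WT replicate 1 gave median log2 ratios of 0.24 and 0.36 in complex II. They gave 0.16 and 0.35 in complex III, 0.26 and 0.08 in complex IV, and 0.03 and 0.16 in complex V. Against WT replicate 2 they gave 0.33 and 0.51 in complex II and 0.58 and 0.68 in complex III. For complexes IV and V these were 0.77 and 0.77, and 0.54 and 0.66. The groups did not overlap for 4 of 4 genes in complex II, 6 of 9 in complex III, 12 of 16 in complex IV (11 higher, 1 lower) and 8 of 17 in complex V.

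These values depended on the 2 WT libraries, which stood apart from each other. The median was 0.65 without WT replicate 1, with 7 members called (Uqcrq, Cox6b1, Cox6b2, Cox7a2, Cox8a, Atp5g3 and Atp5k) where 2.84% of all genes were called in that fit. It was 0.18 without WT replicate 2, with 34 members positive and 0 called, where 0.507% of all genes were. WT replicate 2 was below WT replicate 1 for 40 of 47 members. The gap followed coding length: over the 44 members averaging 5 CPM or more, the median log2 ratio of replicate 2 to replicate 1 was −0.74 for the 14 with under 300 coding bases, −0.33 for the 18 with 300 to under 600 and −0.09 for the 12 with 600 or more. Across these members Spearman's rho was 0.82, and across the 11365 genes of that level 0.48, both between the same 2 libraries. In the Prx-cKO pair rho was 0.27 across members. Offsets for coding length and GC content, added after the data were seen, left a median of 0.31.

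Members of each class of coding length had a positive median in Prx-cKO against WT. Among those with 600 or more coding bases, 10 of 12 lay above without overlap. So did 14 of 18 with 300 to under 600 and 6 of 14 with under 300, against 22.2% of all genes of any length and level. For 600 or more bases the median was 0.46, against 0.01 for the 9992 genes of that length and level. For 300 to under 600 bases it was 0.41, against 0.18 for the 1178 genes of that length and level. Under 300 bases it was 0.36, against 0.16 for 195 genes, so genes of the shorter lengths also had positive medians. Whether the gap between the WT libraries had a part in these values was not tested. Atp5b was at 969 and 1129 CPM in WT against 1397 and 1764 CPM in Prx-cKO (0.59, SE 0.21, edgeR adjusted p 0.465). Atp5a1 was at 740 and 832 CPM and then at 1068 and 1207 CPM (0.53, SE 0.17). Uqcrc1, a core subunit of complex III, was at 266 and 283 CPM in WT against 373 and 452 CPM in Prx-cKO (0.59, SE 0.17, edgeR adjusted p 0.441). In these 3 genes each Prx-cKO library was above each WT library, and no adjusted p passed. Sdha, the longest member, differed less, from 176 and 186 to 218 and 223 CPM (0.29, SE 0.14). Sdhb was at 199 and 181 CPM in WT and 236 and 315 CPM in Prx-cKO (0.54, SE 0.19), the largest value of complex II. Cyc1 was at 211 and 178 CPM and then at 264 and 322 CPM (0.59, SE 0.18). The groups were again apart in all 3 genes, as they were for Sdhd (0.40, SE 0.15) and Sdhc (0.24, SE 0.17). Among shorter members, Cycs was at 171 and 136 CPM in WT and 218 and 253 CPM in Prx-cKO (0.62, SE 0.18), and Cox5a at 122 and 104 CPM and then at 166 and 196 CPM (0.68, SE 0.17).

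Short members showed the gap between the WT libraries most. Atp5k, the e subunit of complex V, was at 154 and 49.7 CPM in WT against 115 and 106 CPM in Prx-cKO, so that both Prx-cKO libraries fell between the WT libraries (0.12, SE 0.51). Atp5e, the ε subunit, was at 245 and 122 CPM in WT against 210 and 251 CPM in Prx-cKO (0.33, SE 0.35). Cox7a2 was at 241 and 111 CPM and then at 207 and 226 CPM (0.30, SE 0.37). Cox7b was at 289 and 149 CPM and then at 252 and 228 CPM (0.13, SE 0.32). For all 4 the groups overlapped. Cox8a was apart, at 230 and 145 CPM in WT and 291 and 275 CPM in Prx-cKO (0.59, SE 0.25), as were Cox6a1 at 194 and 152 CPM against 253 and 267 CPM (0.59, SE 0.18) and Cox4i1 at 320 and 289 CPM against 411 and 511 CPM (0.60, SE 0.18). Cox7a2l was at 163 and 142 CPM in WT and 165 and 166 CPM in Prx-cKO (0.12, SE 0.15), and its sign turned with the length offsets (−0.0188). Atp5s had the lowest value of members at 5 CPM or more, at 14.6 and 9.88 CPM in WT and 11.9 and 9.53 CPM in Prx-cKO (−0.19, SE 0.29), with overlap.

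**Figure D4:**
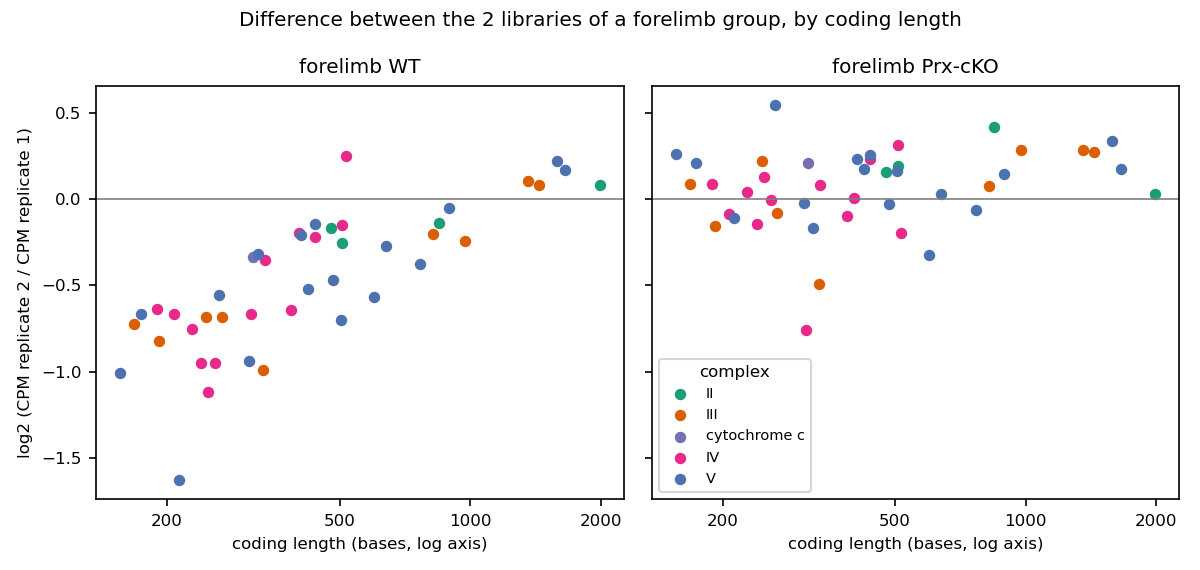
Log2 ratio of CPM in replicate 2 to replicate 1 for forelimb WT (left) and forelimb Prx-cKO (right), against coding length in bases on a log axis; each point is a member averaging 5 CPM or more, coloured by complex. In WT the points rise from below −0.5 for short genes to about 0 for long genes, and in Prx-cKO they scatter about 0.

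Cox6b2 had the largest forelimb difference. This gene (ENSMUSG00000051811, GRCm38 chromosome 7, 4751792 to 4753094, minus strand) encodes the isoform of subunit 6b best known from testis. It stood at 11.4 and 7.15 CPM in WT against 36.0 and 21.2 CPM in Prx-cKO, from 481 to 1085 counts per library. Both Prx-cKO libraries were higher, with a log2 difference of 1.63 (SE 0.37, edgeR adjusted p 0.400), and its adjusted p ran from 0.0042 with DESeq2 to 0.9998 without Prx-cKO replicate 2 (0.017 without WT replicate 1). The common isoform Cox6b1 was at 180 and 93.2 CPM in WT and 183 and 183 CPM in Prx-cKO (0.42, SE 0.32). Of the c subunit genes, Atp5g1 was at 122 and 106 CPM in WT and 175 and 206 CPM in Prx-cKO (0.74, SE 0.17, edgeR adjusted p 0.400). Atp5g2 was at 272 and 246 CPM and then at 390 and 466 CPM (0.72, SE 0.17), and Atp5g3 at 339 and 237 CPM and then at 441 and 499 CPM (0.71, SE 0.22). All 3 c subunit genes were higher in both Prx-cKO libraries.

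The 15 skeletal muscle markers moved with the forelimb comparison. They summed to 453 and 421 CPM in WT and to 1176 and 531 CPM in Prx-cKO, and 14 of 15 had a positive log2 fold change, with none at 0 in any library. The 8 macrophage markers summed to 48.2 to 51.0 CPM in WT and 63.8 to 71.0 CPM in Prx-cKO, and the 8 limb mesenchyme markers to 1534 to 1718 CPM in WT and 1158 to 1276 CPM in Prx-cKO. The 7 erythroid markers summed to 2362 to 3414 CPM in WT and 2385 to 3114 CPM in Prx-cKO. The part of these cells in the respiratory genes was not tested. The muscle isoforms of complex IV were low: Cox6a2 was at 0.78 and 0.28 CPM in WT and 1.60 and 0.16 CPM in Prx-cKO, and Cox8b was at 0.24 and 0.13 and then at 0.49 and 0.08 CPM. Cox7a1, the contractile muscle isoform of subunit 7a, was at 0.43 and 0.63 CPM in WT and 0.31 and 0.35 CPM in Prx-cKO (−0.68, SE 0.55).

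Levels of isoforms can be compared per length. In CPM per kilobase of exonic length, Cox4i1 was at 186 to 403 in all 12 libraries, whereas Cox4i2, the isoform of hypoxic tissue, was at 14.0 to 21.1 in the forelimb and at 0 to 0.31 in the cultures. Cox6a1 was at 165 to 443 and Cox6a2 at 0.23 to 2.63. Cox8a was at 165 to 471, while Cox8b stayed at or under 1.35. The common isoform was thus the higher gene of each pair in every library. In the forelimb Cox6b2 was at 6.45 to 32.5 per kilobase, against 132 to 259 for Cox6b1. In the cultures Cox7a1 was at 0.97 to 7.37 per kilobase and Cox7a2 at 44.2 to 110. Cox7a1 was at 1.05 and 1.06 CPM in R0D3 WT against 2.82 and 2.87 CPM in R40D3 WT, and the log2 difference of 1.43 (SE 0.50) did not pass (edgeR adjusted p 0.099).

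Copies elsewhere in the genome limit the levels of some members. In transcripts of the reference annotation, 20 members shared at least 1 coding word of 75 bases with another gene, and 13 shared 30% or more. Cycs, Cox7c, Atp5l and Atp5g2 shared 100% and Atp5g1 92.8%. These 5 had a median log2 ratio of WT forelimb to R40D3 WT levels of 2.86, from tables that were made separately. For the other 36 members with a WT forelimb mean of 75.1 CPM or more it was −0.38. Cox4i2, Cox6b2 and Atp5s, which share no coding word, averaged 5 CPM or more in the forelimb but lay below that level. Their means were 12.1, 9.26 and 12.3 CPM in WT forelimb against 0.06, 0.45 and 6.21 CPM in R40D3 WT. In the cultures the copies of Cycs held 47.0% to 55.7% of the summed counts of gene and copies, against 10.1% to 17.8% in the forelimb. For Cox7c it was 43.4% to 51.6% against 0.785% to 5.11%, and for Atp5g1 66.9% to 76.2% against 0.394% to 3.22%. The shares were higher in every culture library than in every forelimb library for these 3 genes, so no other level of them is compared between tissues here. Without the members that shared 30% or more, the median was 1.14 in WT R40D3 against R0D3 (27 of 33 called, all genes 16.9%). It was 0.84 in LysM-cKO (17 of 33, all genes 10.1%), −0.31 at R40D3 between genotypes and 0.41 in the forelimb.

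Of 36 nuclear complex I genes tested in the cultures, 27 were called higher in WT R40D3 against R0D3 (median 0.91) and 7 in LysM-cKO (0.67). Of all genes, 11.4% were called higher in WT and 6.99% in LysM-cKO. Ndufs1 at 1.26 (SE 0.15) in WT and Ndufc2 at 0.93 (SE 0.13) in LysM-cKO had the smallest p. Between genotypes at R40D3 all 36 were negative (median −0.29, 0 called), against 51.4% of all genes. Their summed levels overlapped there, at 2875 to 3539 CPM in WT and 2177 to 3026 CPM in LysM-cKO. In the forelimb 36 of 37 were positive (median 0.32, 0 called), against 47.2% of all genes. The sums were 2710 to 3818 CPM in WT, whose libraries again stood apart, and 4031 to 4256 CPM in Prx-cKO. The 13 protein genes of the mitochondrial genome, which are transcribed apart from the nuclear genes, were 3 of 13 called higher in WT R40D3 (median 0.61) and 0 of 13 in LysM-cKO (0.49). In the forelimb all 13 were negative (median −0.29, 0 called), opposite in sign to the median of the nuclear members. Of all genes, 47.2% were positive and 0.0% were called there. The sums of the 13 genes overlapped, at 26406 to 35212 CPM in WT and 24210 to 29585 CPM in Prx-cKO. Whether the nuclear and mitochondrial genes differ there was not tested.

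Assembly factors of complexes II to V, which insert haem, copper and iron-sulfur centres or help the parts join, followed in smaller number. Of 32 tested, 11 were called higher in WT R40D3 (median 0.42). Cox10, which takes part in making the haem of complex IV, was at 1.31 (SE 0.16). In LysM-cKO 8 were called higher (median 0.41), with Uqcc1, a complex III assembly factor, at 0.90 (SE 0.14). Of 9 regulators of mitochondrial biogenesis tested in the cultures, 3 were called higher in WT and 2 in LysM-cKO. Of all genes, 11.4% were called higher in WT and 6.99% in LysM-cKO. Ppargc1b, which encodes the coactivator PGC-1β, was at 2.74 and 1.24 CPM in R0D3 WT against 35.8 and 37.8 CPM in R40D3 WT (log2 fold change 4.19, SE 0.33, edgeR adjusted p 0.00051). In LysM-cKO it was at 2.36 and 2.06 CPM and then at 22.7 and 35.0 CPM (3.70, SE 0.32, edgeR adjusted p 0.0011). Esrra, which encodes ERRα, was at 47.9 and 52.0 CPM in R0D3 WT against 85.2 and 107 CPM in R40D3 WT (0.95, SE 0.17, edgeR adjusted p 0.0087). Both genes were far apart between R0D3 and R40D3 in WT. In the forelimb Esrra was at 21.8 and 16.6 CPM in WT and 29.9 and 32.3 CPM in Prx-cKO (0.70, SE 0.21, edgeR adjusted p 0.444). Ppargc1a, which encodes PGC-1α, went the other way there, at 6.97 and 9.25 CPM in WT and 4.97 and 4.27 CPM in Prx-cKO (−0.82, SE 0.29, edgeR adjusted p 0.466). Neither passed, and 6 of the 10 regulators had a positive value in the forelimb, against 47.2% of all genes.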

How the data were processed

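The authors deposited whole-number read counts per Ensembl gene, and these counts were used as deposited. The submitters' processing notes name FastQC 0.11.2, Trimmomatic 0.36, HISAT2 2.1.0, DESeq2 1.12.4 and the build GRCm38. The counting tool, annotation and use of strand are not given in the sources used here. Identifiers matched a GENCODE M21 symbol for 99.63% (forelimb) and 99.53% (culture).

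Genes were kept by filterByExpr, scaled by TMM and tested in R 4.3.3 with edgeR 4.0.16 (quasi-likelihood, legacy = FALSE, two-sided, Benjamini-Hochberg over all genes, threshold 0.05). One fit held the 4 forelimb libraries and another the 8 of the cultures. The standard error is the absolute log2 fold change over the square root of F. The procedure was tested on simulated counts. Near-identical copies were found as shared coding words of 75 bases in GENCODE transcripts. Promoter windows came from RefSeq. Protein sequences were not used here.

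The members and gene lists were chosen with earlier results of these data known. The named members were the smallest p per complex and comparison, the largest rise and fall at 5 CPM or more, the 4 complex II genes and subunits with several genes. Members outside this rule that the text gives, such as Atp5k and Atp5a1, were chosen after their values were seen. Same-numbered culture libraries were deposited together and deviated together in all 6 pairs of groups (r from 0.343 to 0.609), so the numbers may pair them. The main fits and the fits with 1 library left out used group means without a term for the replicate number. Their errors, p-values and calls therefore do not use this pairing, which enters only through the replicate block. No pair of replicates agreed within sampling noise. Alternatives were other scalings, filters and tools, length and GC offsets, the replicate block, the compared libraries alone and each library left out, with DESeq2 1.42.0 as the other tool.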

Additional observations from a re-analysis of the deposited data

How the results depend on the processing

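With 2 libraries a group, each count of calls rests on few degrees of freedom, and a lone library was assumed to vary like the other groups. Leaving out 1 library moved the number of members called from 36 to between 9 and 31 in WT R40D3 against R0D3, from 23 to between 2 and 33 in LysM-cKO, and from 0 to between 0 and 7 in the forelimb. The medians ran from 0.495 to 1.06 in LysM-cKO R40D3 against R0D3, from −0.608 to −0.0661 between genotypes at R40D3 and from −0.504 to 0.0192 for the interaction. The share of all genes called moved with these counts. DESeq2 called 3 forelimb members. With only the 4 compared libraries 6 members were called in LysM-cKO R40D3 against R0D3. Library size alone moved the forelimb median of all genes from −0.03 to −0.13, and the members' median to 0.31.

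The replicate block raised the LysM-cKO count to 40, also with length and GC trend offsets (40; 21.3% of all genes in both fits), gave 40 in WT (28.3% of all genes), and left 0 called in the genotype comparisons and the interaction. In the forelimb, where the deviations of same-numbered libraries correlated at r = 0.261 in the only pair, the samples share only a number. There the block gave 0 called and a median of 0.42, and the crossed replicate block 0 and 0.43.

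Single genes changed sign as follows, and the cause was not tested. Forelimb Cox7a2l was −0.0188 with length and GC trend offsets, −0.0185 with these and the block, and −0.0338 with coding length offsets, the last added after seeing the data. With 1 library left out, forelimb values ran from −0.443 to 0.0782 for Atp5s, −1.62 to 1.71 for Cox6a2, −0.146 to 0.929 for Cox7a2, −0.260 to 0.647 for Cox7b and −1.08 to 1.51 for Cox8b. Cycs at R0D3 ran from −0.232 to 0.614. In WT R40D3 against R0D3, Cox6a2 ran from −0.0291 to 0.846 and Cox6b2 from −0.0464 to 0.527. The interaction of Cox7a2l ran from −0.160 to 0.326. Of the other values of named genes, 920 kept direction and side of the threshold, 53 lost the call and 17 gained it.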
